A study of Mus musculus with 14 samples.

Results

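H3K27me3, trimethylation of lysine 27 of histone H3, was called by at least 2 peak lists at 233 autosomal regions of cells treated with EPZ6438 (EPZ), an inhibitor of Ezh2. The regions were chosen from the 4 EPZ peak lists: all autosomal peaks were merged where they overlapped by at least 1 bp, which gave 378 merged regions, and the 233 that held peaks of at least 2 of the 4 lists were kept. They are called persisting regions here. The cells were mouse PDGF neural stem cells by their labels, and the design text of the series calls them mouse DIPG cells, after diffuse intrinsic pontine glioma, a tumour of the brainstem in children. Their histone H3.3 was either wild type (H3WT) or carried the K27M substitution, methionine in place of lysine 27, and the labels give no source animal, clone or promoter for either. Both genotypes had been kept for 12 days in DMSO, the solvent, or in 3 µM EPZ, with 2 H3K27me3 libraries for each of the 4 combinations. Suz12 and Ring1b were mapped with 1 library each per genotype, in DMSO only. The lists hold positions and no heights or expression values, so the labelled cell type could not be checked against markers.

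PRC2 is the Polycomb complex that places H3K27me3, with Ezh2 or its relative Ezh1 as the catalytic subunit and Suz12 and Eed as core partners. PRC1, which holds the ubiquitin ligase Ring1b, binds the mark through its Cbx subunits, and both complexes gather over CG-rich starts of silent developmental genes. In gliomas of the brainstem the K27M substitution is known to lower H3K27me3 over most of the genome while leaving some sites marked.

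The sequences below show what kind of start lies in the widest persisting regions, and CG dinucleotides are in capitals because CG-rich starts are the usual sites of PRC2. They are RefSeq promoters of build GRCm38.p6, from 250 bases before to 50 after the start, on the plus strand. Hoxd11, a homeobox gene of limb and trunk patterning, starts within chr2:74682073-74682372, in the 68.9 kb region from Evx2 to Hoxd3. Hand2, a bHLH factor of heart and limb, starts within chr8:57320733-57321032, in a region of 41.3 kb. Zdbf2, an imprinted gene, starts within chr1:63273019-63273318, in a region of 36.4 kb, and the homeobox gene Nkx2-3 starts within chr19:43612075-43612374, in a region of 24.8 kb. Peaks of Suz12 and Ring1b of both genotypes covered the starts of Hand2, Zdbf2 and Nkx2-3. The start of Hoxd11 lay under Ring1b of both genotypes and under Suz12 of H3WT, and not under a Suz12 peak of K27M. The regions shown were chosen for carrying both factors, so these peaks largely describe the choice. Hoxa11 and Hoxb4, chosen in the same way, are not shown. The start of Hoxa11 also lacked a Suz12 peak of K27M.
Hoxd11: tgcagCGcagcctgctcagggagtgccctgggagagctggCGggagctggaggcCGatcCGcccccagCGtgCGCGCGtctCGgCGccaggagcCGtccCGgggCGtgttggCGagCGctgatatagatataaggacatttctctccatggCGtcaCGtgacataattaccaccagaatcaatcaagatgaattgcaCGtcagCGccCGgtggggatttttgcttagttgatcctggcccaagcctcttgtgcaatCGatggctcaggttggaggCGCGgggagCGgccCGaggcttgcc
Hand2: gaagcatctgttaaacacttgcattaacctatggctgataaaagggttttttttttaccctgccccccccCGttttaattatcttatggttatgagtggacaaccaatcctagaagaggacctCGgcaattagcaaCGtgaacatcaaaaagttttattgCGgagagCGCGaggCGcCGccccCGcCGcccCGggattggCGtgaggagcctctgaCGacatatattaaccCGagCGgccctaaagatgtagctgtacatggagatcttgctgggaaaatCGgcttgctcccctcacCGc
Zdbf2: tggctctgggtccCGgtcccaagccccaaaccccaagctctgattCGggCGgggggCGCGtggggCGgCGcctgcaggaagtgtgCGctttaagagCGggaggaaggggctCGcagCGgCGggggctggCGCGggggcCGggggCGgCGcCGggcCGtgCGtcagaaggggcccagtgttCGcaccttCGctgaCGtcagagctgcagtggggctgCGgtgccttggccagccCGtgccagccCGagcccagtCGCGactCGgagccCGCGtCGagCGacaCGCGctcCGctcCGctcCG
Nkx2-3: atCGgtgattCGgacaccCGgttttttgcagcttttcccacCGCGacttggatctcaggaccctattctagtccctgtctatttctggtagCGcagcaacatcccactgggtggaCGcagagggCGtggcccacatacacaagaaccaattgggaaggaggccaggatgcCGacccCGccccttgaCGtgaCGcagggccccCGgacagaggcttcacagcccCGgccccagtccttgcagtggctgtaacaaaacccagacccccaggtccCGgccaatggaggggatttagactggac
The CG dinucleotides numbered 25 at Hoxd11, 17 at Hand2, 38 at Zdbf2 and 15 at Nkx2-3. The median over all 20085 autosomal protein-coding promoters of the RefSeq table was 14.0, so Hand2 and Nkx2-3 lay only a little above it.

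The persisting regions also held 7 miRNA genes, and 5 of them belong to the miR-10 and miR-196 families that are encoded between Hox genes. Their mature sequences (RefSeq, GRCm38.p6) are shown with the seed, bases 2 to 8, in capitals, because the seed groups them into these families.
mmu-miR-10a-5p: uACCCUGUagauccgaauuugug
mmu-miR-10b-5p: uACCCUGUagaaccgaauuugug
mmu-miR-196a-5p: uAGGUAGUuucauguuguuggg
mmu-miR-196b-5p: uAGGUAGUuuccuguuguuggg
The genes of miR-10a and miR-10b lay in the Hoxb5 to Hoxb2 and the Hoxd3 and Hoxd4 regions and shared the seed ACCCUGU. Mir196a-1, Mir196a-2 and Mir196b lay in the Hoxb9 to Hoxb5, Hoxc13 to Hoxc6 and Hoxa9 to Hoxa13 regions and shared the seed AGGUAGU. Mir615 lay within Hoxc5. All 7 miRNA genes were in regions found in all 4 EPZ lists.

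The 4 EPZ lists held 201 to 338 autosomal peaks, against 2153 to 43446 in the 4 DMSO lists of H3K27me3, and read depth is unknown. H3WT replicates 1 and 2 had 278 and 271 peaks, and K27M replicates 1 and 2 had 201 and 338. The persisting regions took in 96.6%, 99.3%, 99.8% and 90.9% of the length of these lists in that order, which in turn covered 94.7%, 81.6%, 45.8% and 78.7% of the persisting length. The list of K27M replicate 1 was the shortest and touched 129 of the 233 regions, where the other lists touched 196 to 223. The number of peaks also tracked the replicate number in DMSO, where the replicate 2 lists were the longer ones in both genotypes, and whether depth sets this was not tested. The labels do not say whether the replicates were separate cultures, so spreads may be technical. Only 2 EPZ peaks lay on chromosome X, both in K27M replicate 2.

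Together the persisting regions spanned 2.41 Mb. Their median width was 7.21 kb, with quartiles of 4.08 and 13.3 kb, and the widest spanned 92.8 kb. The 117 regions found in all 4 lists had a median width of 12.8 kb and made up 1.75 Mb. The 61 regions in 3 lists had a median of 5.85 kb, and the 55 in exactly 2 lists one of 3.42 kb. Width and number of lists come from the same peaks, so this order describes the selection. The regions fell into 177 loci when neighbours up to 100 kb apart were joined. Of these loci 133 held 1 region, and the other 44 held 100 regions between them.

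**Figure D1:**
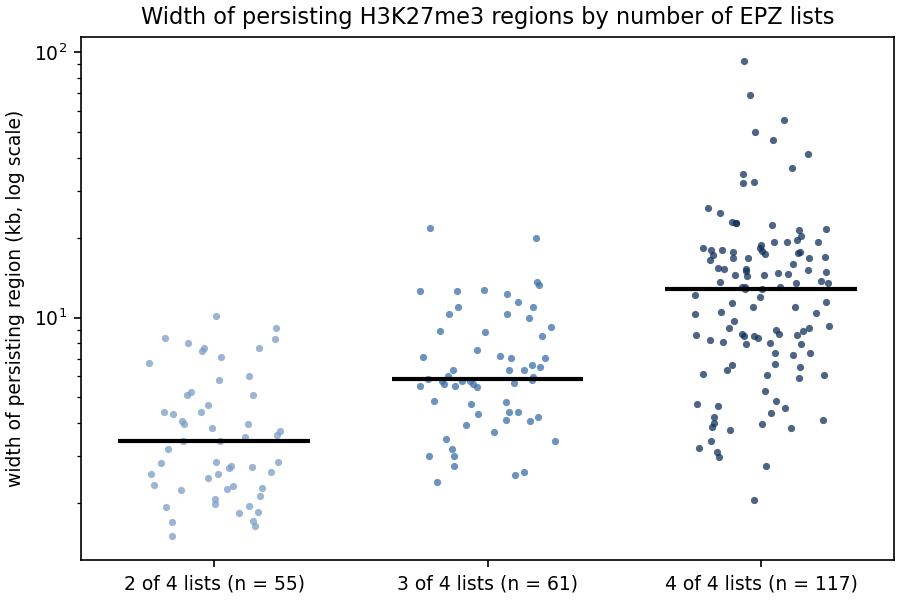
Width in kb (log scale) of each persisting region by the number of EPZ peak lists that touch it, with 1 point per region and a line at the median. Medians are 3.42 kb in 2 lists, 5.85 kb in 3 lists and 12.8 kb in 4 lists, and the groups overlap.

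The pattern of lists was uneven between the genotypes. Of the 61 regions in 3 lists, 50 lacked only K27M replicate 1, 7 lacked only H3WT replicate 2 and 4 lacked only K27M replicate 2. Of the 55 in 2 lists, 33 had both H3WT lists and 1 had both K27M lists. The other 21 had 1 list of each genotype, 12 of them H3WT replicate 1 with K27M replicate 2 and 9 both replicate 2 lists. Within the 117 regions of all 4 lists, H3WT peaks covered 98.4% and 90.3% of the length and K27M peaks 59.6% and 87.6%. Both H3WT lists covered more of the region than both K27M lists in 130 of the 233 regions, and the reverse held in 4. Over all 378 merged regions these shares were 34.4% and 1.06%, and since the same lists chose the regions nothing further is read from them.

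The 5 widest persisting regions all lay in Hox clusters, whose homeobox genes set position along the body axis. The widest, chr15:102907629-103000398, ran 92.8 kb from Hoxc13 to Hoxc6. H3K27me3 peaks covered 92.4 and 91.7 kb of it in H3WT EPZ replicates 1 and 2, and 67.7 and 88.9 kb in K27M EPZ replicates 1 and 2. The next, chr2:74646853-74715721, ran 68.9 kb from Evx2 to Hoxd3, with 68.9 and 66.9 kb covered in H3WT and 50.1 and 66.8 kb in K27M. In both regions K27M replicate 1 was low, while K27M replicate 2 lay just under the H3WT values. The region from Hoxa9 to Hoxa13, chr6:52222532-52277986, was 55.5 kb wide, with 54.6 and 53.1 kb covered in H3WT and 44.8 and 53.3 kb in K27M. There the genotypes overlapped.

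Cover of the other Hox regions in EPZ varied between the K27M lists, from near the H3WT values to none. The region of Hoxb5, Hoxb4, Hoxb3 and Hoxb2, chr11:96307055-96357121, was 50.1 kb wide. Peaks covered 50.1 and 41.5 kb of it in H3WT and 1.59 and 23.4 kb in K27M, with no overlap between the genotypes. The region from Hoxb9 to Hoxb5, chr11:96259282-96305645, had 46.4 and 45.1 kb covered in H3WT and 26.6 and 38.3 kb in K27M. At Hoxc4, chr15:103019038-103038926, 19.9 and 16.6 kb were covered in H3WT, 7.14 kb in K27M replicate 2 and none in K27M replicate 1. At Hoxd3 and Hoxd4, chr2:74720628-74753123, only K27M replicate 1 was low, with 11.3 kb against 32.5, 32.2 and 32.1 kb. At the posterior gene Hoxb13, chr11:96185806-96198407, 12.2 and 11.5 kb were covered in H3WT, 5.69 kb in K27M replicate 2 and none in K27M replicate 1. At Hoxa3 and Hoxa7, chr6:52212232-52221386, K27M lay on both sides of H3WT, with 6.52 and 3.89 kb in H3WT, 2.56 kb in K27M replicate 1 and the highest value, 8.49 kb, in K27M replicate 2. All of these Hox stretches lay wholly under DMSO peaks in each of the 4 DMSO libraries.

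Outside the Hox clusters the widest region was that of Hand2, chr8:57310138-57351458. It had 41.3 and 38.4 kb covered in H3WT and 25.1 and 40.6 kb in K27M. At Zdbf2, chr1:63245139-63281543, the 4 values were 36.4 and 36.2 kb in H3WT and 31.4 and 35.9 kb in K27M, so that K27M replicate 2 was close to H3WT. At Gata4, a zinc finger factor of heart and gut endoderm, chr14:63237807-63272407, they were 34.4, 33.2, 26.2 and 34.1 kb, and the genotypes overlapped. At Pax3, a paired-box factor of dorsal neural tube, neural crest and muscle, chr1:78185283-78217418, they were 32.0, 31.0, 20.1 and 28.2 kb, and both K27M values were the lower ones. Sim2, a bHLH-PAS factor, was the one region among the 20 widest that was missing from an H3WT list. Its 21.8 kb were covered over 21.6 kb in H3WT replicate 1, 19.8 and 21.6 kb in K27M, and not at all in H3WT replicate 2.

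**Figure D2:**
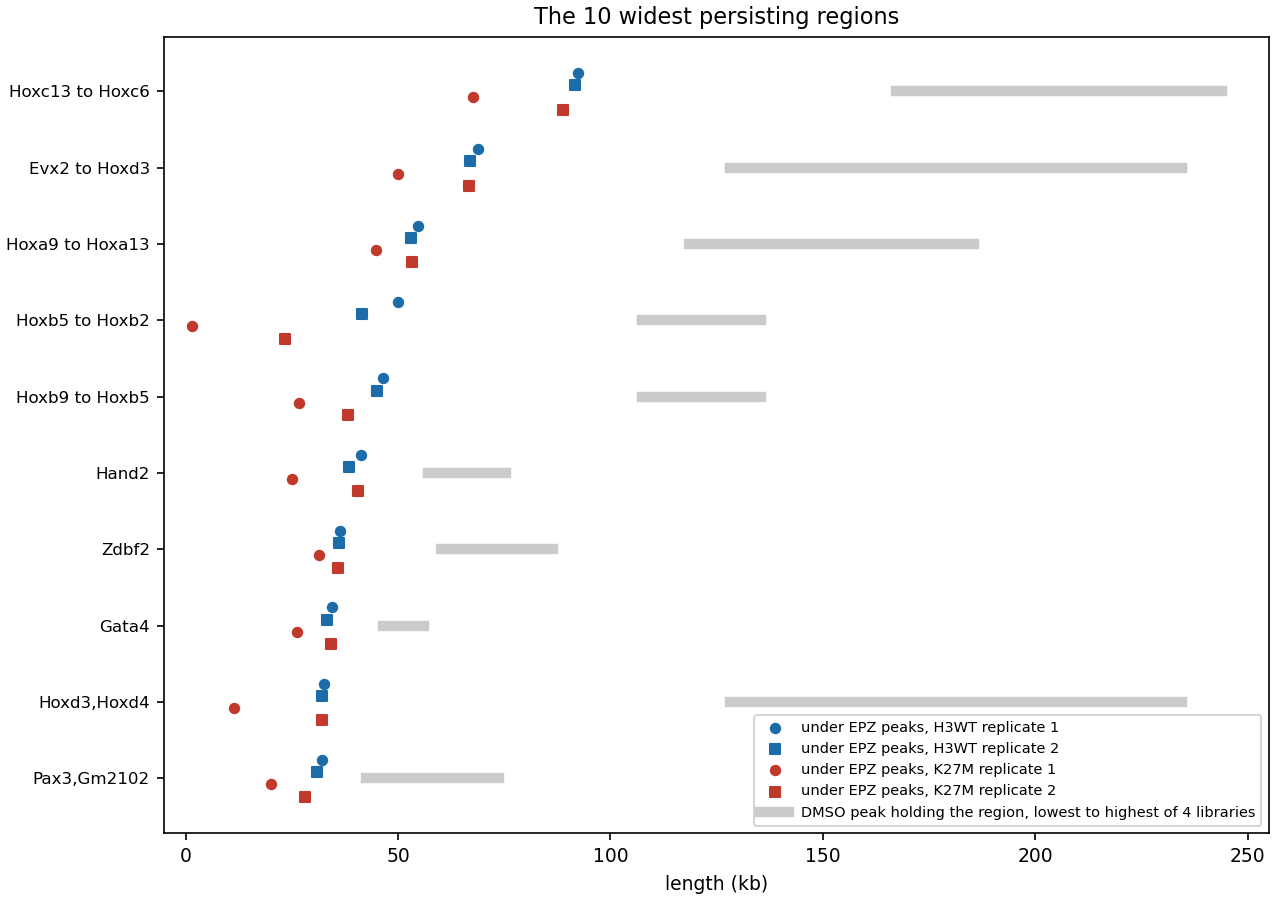
Length in kb under EPZ peaks of H3K27me3 within each of the 10 widest persisting regions (points, 1 per library) and length in kb of the DMSO peaks that touch the region (grey bar, lowest to highest of 4 DMSO libraries). K27M replicate 1 has 1.59 kb at Hoxb5 to Hoxb2, and every DMSO bar lies to the right of the EPZ points of its region.

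Protein-coding genes were assigned to a region that reached to within 1 kb of either gene end, since the gene table gives no strand. By this measure 151 regions had a gene end, 41 lay inside a gene away from its ends and 41 lay outside genes, at a median of 19.1 kb from the nearest one. The 151 regions belonged to 179 genes, 0.866% of the 20665 autosomal protein-coding genes. Of 936 genes with an H3K27me3 peak at an end in all 4 DMSO libraries, 178 had a persisting region there, 19.0%. The remaining gene was Slc30a4, a zinc transporter gene. Of the 179 genes, 140 were in the 17 gene lists described here.

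Hox genes stood highest, with 32 of 39 at a persisting region and 31 of these in regions of all 4 lists. All 4 clusters were included. Hoxa4, Hoxa5, Hoxa6, Hoxb1 and Hoxd1 had DMSO peaks at an end in all 4 libraries and no persisting region, so 32 of 37 Hox genes marked in DMSO kept one, against 19.0% of all such genes. Neighbouring Hox genes shared regions, such as the 92.8 kb one from Hoxc13 to Hoxc6, so the 32 genes are not separate observations. Hoxa5 and Hoxa6 had a 5.05 kb peak in the list of K27M replicate 2 alone.

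The other homeobox lists had smaller shares than the Hox genes, and also smaller ones than the Gata and forkhead genes described further on. Of the Evx, ParaHox and related genes, 21 of 40 had a persisting region, led by Evx2 in the Hoxd region, Lbx1 (21.3 kb; muscle precursors and dorsal spinal cord), Cdx2 (18.3 kb; gut and trophoblast), Evx1 (16.7 kb), Mnx1 (13.0 kb; motor neurons and pancreas) and Tlx1 (12.2 kb; spleen). Of the Nkx genes it was 7 of 14, with Nkx2-3, Nkx2-5 (17.9 kb; heart), Nkx2-1 (15.1 kb; thyroid, lung and ventral forebrain), Nkx6-1 (13.0 kb; ventral spinal cord and pancreas), Nkx1-1 and Nkx2-6. Of the paired-class and Pax genes it was 16 of 35, with Pax3, Uncx (22.7 kb), Otp (20.2 kb; hypothalamus), Shox2 (15.2 kb) and Pax2 (14.6 kb; kidney and midbrain-hindbrain boundary). Among genes marked in all 4 DMSO libraries these 3 lists kept 21 of 34, 7 of 12 and 16 of 24. At Nkx2-5, chr17:26836423-26854306, EPZ peaks covered 17.2 and 15.5 kb in H3WT against 9.87 and 16.8 kb in K27M. At Cdx2, chr5:147299118-147317416, it was 18.3 and 16.9 kb against 11.0 and 16.9 kb. In both regions K27M replicate 1 was low and K27M replicate 2 was within or next to the H3WT range. Pax2, chr19:44740790-44755373, was low in both K27M lists, with 14.6 and 12.8 kb in H3WT and 2.68 and 7.51 kb in K27M, although its DMSO domains spanned 50.9, 54.3, 28.1 and 47.4 kb.

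In the list of LIM, POU, sine oculis and Iroquois genes, members of 1 family differed. The list had 13 of 37 genes at a persisting region, or 13 of 29 of those marked in all 4 DMSO libraries. Isl1 (22.7 kb; motor neurons and heart), Six3 (19.5 kb; eye and forebrain), Lhx1 (15.9 kb), Lhx5 (15.4 kb) and Pou4f1 (14.7 kb; sensory neurons) were among the widest. Isl2, Lhx2, Lhx3, Lhx6 and Pou4f3, relatives of these genes, were marked in all 4 DMSO libraries and had no persisting region at an end. Irx1 to Irx6, the Iroquois genes, were all marked in the 4 DMSO libraries and none had a persisting region at an end. At Isl1, chr13:116292451-116315133, EPZ peaks covered 22.7 and 20.4 kb in H3WT and 13.9 and 21.1 kb in K27M. At Lhx1, chr11:84514911-84530853, the values were 15.4 and 15.7 kb in H3WT and 14.0 and 15.7 kb in K27M, with little spread among the 4 libraries. At Lhx9, Lhx4 and Lhx3 a region of 16.8, 11.9 and 3.24 kb lay inside the gene, away from its ends, so these genes are not in the count. Another region, of 5.13 kb, lay near Pou4f3 and was not counted for it.

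Gata and forkhead genes had 18 of 31 at a persisting region, 58.1% and the highest share after the 82.1% of the Hox genes, or 18 of the 23 marked in all 4 DMSO libraries. They included Gata4, Foxa2 (21.5 kb; floor plate and endoderm), Foxf1 (19.3 kb; visceral mesoderm), Foxd1 (19.2 kb; kidney stroma and retina), Foxb1 (17.8 kb) and Foxa1 (17.6 kb; endoderm). Of the bHLH genes it was 11 of 45, with Hand2, Sim1 (22.9 kb; hypothalamus), Sim2, Twist1 (13.6 kb; mesoderm and neural crest), Olig3 (12.8 kb; dorsal neural tube) and Tcf21 (12.3 kb; visceral mesoderm). Of the Sox and developmental zinc finger genes it was 12 of 42, with Zic4 (25.9 kb; cerebellum), Prdm13 (18.3 kb), Wt1 (17.5 kb; kidney and gonad), Fezf1 (13.7 kb), Sox14 (13.0 kb) and Sox17 (10.5 kb; endoderm and endothelium). Among genes marked in all 4 DMSO libraries the bHLH list kept 11 of 22 and the Sox and zinc finger list 12 of 22. At Foxa2, chr2:148027313-148048809, the covered lengths were 21.5 and 20.5 kb in H3WT and 14.1 and 19.4 kb in K27M. At Olig3, chr10:19351095-19363935, they were 12.4 and 11.8 kb in H3WT and 7.52 and 12.8 kb in K27M. At Zic4, chr9:91385128-91411034, they were 21.7 and 19.0 kb in H3WT and 14.6 and 25.9 kb in K27M. The genotypes overlapped at Olig3 and Zic4, and at Foxa2 both K27M values were the lower ones.

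Other developmental lists had smaller shares at persisting regions than those above, but not smaller than all genes. T-box, nuclear receptor and Tfap2, and signalling genes had 12.5%, 10.0% and 8.93%, against 0.866% of all autosomal protein-coding genes. Of their genes marked in all 4 DMSO libraries 2 of 9, 2 of 5 and 5 of 25 kept a region. The share over all such marked genes was 19.0%. Among the T-box genes Tbx20 (15.0 kb; heart) and Tbx15 (11.0 kb at its end, and 17.7 kb inside it) had a region, 2 of 16, while 9 of the 16 were marked in all 4 DMSO libraries. Among the nuclear receptor and Tfap2 genes it was Tfap2a and Tfap2b, neural crest and ectoderm factors, 2 of 20 with 5 marked. Of the Wnt, Bmp, Fgf and Hedgehog genes, 25 of 56 were marked in DMSO and 5 had a persisting region: Wnt1, Ihh, Fgf4, Wnt3a and Gdf7. Those 5 regions were narrow, between 2.06 kb at Gdf7 and 3.43 kb at Wnt1. At Wnt1, chr15:98790165-98793596, EPZ peaks covered 3.43 and 2.03 kb in H3WT and 2.12 and 1.48 kb in K27M, inside DMSO domains of 10.5, 20.6, 10.3 and 19.0 kb. Bmp4, Fgf8 and Shh were among the 20 marked signalling genes without one. These counts leave out regions inside Nr5a1 (4.02 kb) and Tbx5 (4.07 kb), away from the gene ends. They also leave out regions near Nr2f2 (11.0 and 9.10 kb), Tbx3 (4.42 kb) and Gdf10 (2.72 kb).

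The imprinted list had 2 of 28 genes, the growth factor gene Igf2 and the growth regulator gene Grb10. The imprinted genes Zdbf2 and Gnas are not in that list. Gnas had a region of 3.70 kb at an end, and the region of Zdbf2 holds the start shown above but neither end of the longer RefSeq gene interval, so it was counted as inside the gene. At Igf2, chr7:142658140-142666073, the 7.93 kb region had 7.93 and 7.64 kb covered in H3WT and 6.90 and 7.78 kb in K27M, so the genotypes overlapped. No persisting region was found at the ends of 23 germ cell and meiosis genes, 12 cell cycle inhibitors, 32 Polycomb and H3K27 enzyme genes, 33 neural stem, astrocyte and oligodendrocyte genes or 32 housekeeping genes. Of these lists 2, 3, 3, 2 and 0 genes were marked in all 4 DMSO libraries. The share with a persisting region was 0.866% over all autosomal protein-coding genes and 19.0% over those so marked. With so few marked genes a count of 0 is near these shares, and nothing is read from it. Cdkn2a, the INK4 and ARF cell cycle inhibitor locus, was marked in all 4 DMSO libraries and had no EPZ peak at its ends in any list, and so was Cbx2, a PRC1 gene. Cdkn2b, Ezh2, Suz12 and Eed had no peak at their ends in any DMSO or EPZ library, and Pdgfra, marked in 3 of the 4 DMSO libraries, had none in EPZ.

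**Figure D3:**
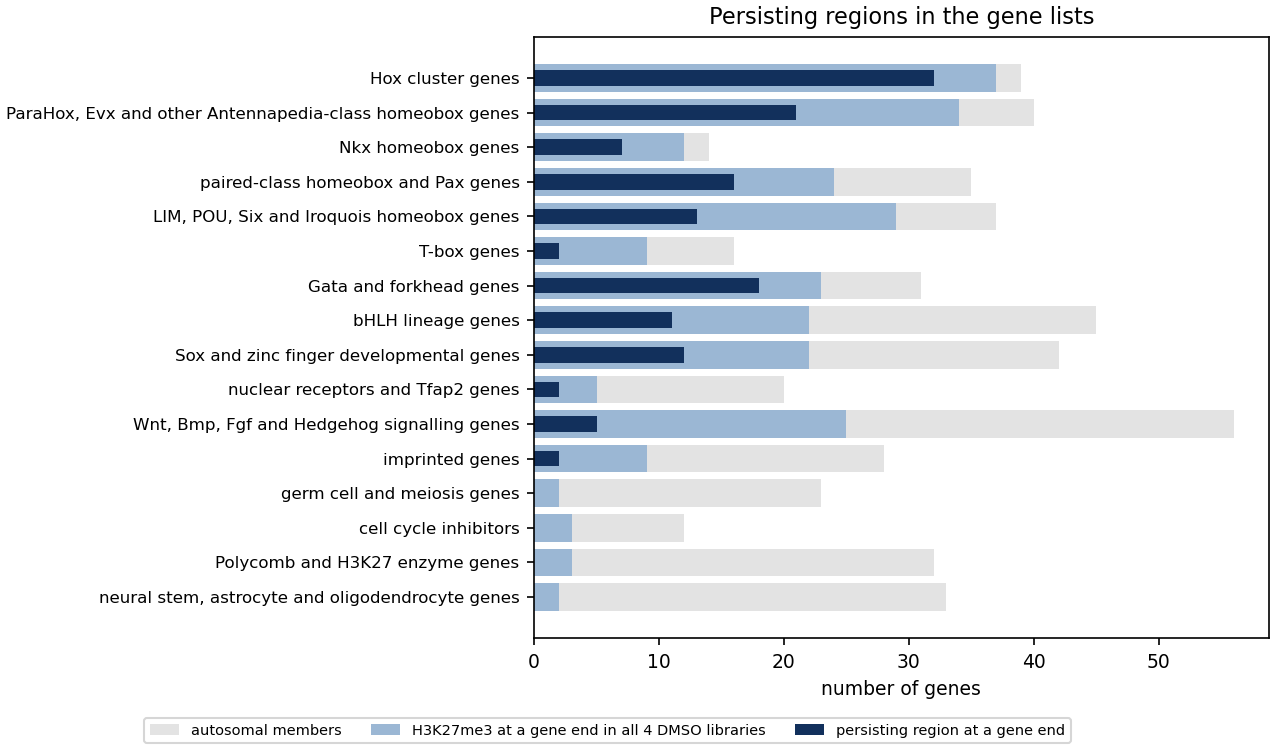
Number of autosomal genes in each gene list (light grey), of those with H3K27me3 at an end in all 4 DMSO libraries (blue) and of those with a persisting region at an end (dark). Lists with fewer than 2 genes marked in DMSO are not drawn. The dark bar reaches 32 of 39 for Hox genes, 2 of 16 for T-box genes and 5 of 56 for signalling genes, and is 0 in the lowest 4 lists.

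A further 39 genes at persisting regions were in no list. The widest among them were Gm2102 beside Pax3, Mthfsd beside Foxf1, the homeobox genes Hmx1 (18.7 kb), Hmx2 and Hmx3, and Urad beside Cdx2. Several are regulators too, such as Sp8 (17.4 kb) and Skor1 (14.5 kb). The regions held 114 long noncoding RNA genes by the RefSeq table, including Hotair in the Hoxc cluster, Hottip and Hoxa11os in the Hoxa cluster, Haglr in the Hoxd cluster, Fendrr beside Foxf1 and Hand2os1 beside Hand2.

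In DMSO, which the choice of regions did not use, the persisting regions were the inner parts of wider H3K27me3 domains. Peaks covered 99.1% and 99.4% of their length in H3WT DMSO replicates 1 and 2, and 98.0% and 99.4% in K27M DMSO replicates 1 and 2. The mean was 99.2% ± 0.268 (SD, n = 2) in H3WT and 98.7% ± 0.948 (SD, n = 2) in K27M. The difference of -0.56 percentage points was within the spread of the libraries (two-sided exact permutation test, p = 0.667, where the smallest p possible with 2 against 2 is 0.333). Of the 233 regions, 223 had a peak in all 4 DMSO libraries and 211 to 228 lay under DMSO peaks over their whole length.

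The DMSO peaks that touched persisting regions were long. They numbered 195 and 185 in H3WT and 196 and 187 in K27M, with median widths of 24.3, 36.7, 18.7 and 29.1 kb. The other DMSO peaks of the same libraries had medians of 1.88, 1.93, 2.63 and 2.10 kb. The peaks that touched persisting regions summed to 5.50 and 8.14 Mb in H3WT and 4.58 and 6.44 Mb in K27M. On the log2 scale K27M differed from H3WT by -0.30, with -0.26 for the replicate 1 libraries and -0.34 for the replicate 2 libraries, and the ranges of the genotypes overlapped (two-sided exact permutation test, p = 0.667). Persisting regions made up 43.4% and 29.4% of that length in H3WT and 51.6% and 37.1% in K27M. Where a region lay within 1 DMSO peak, the peak ran on by a median of 7.35 and 12.9 kb per side in H3WT and 5.10 and 9.61 kb in K27M.

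Wide DMSO domains often held a persisting region, and many did not. After merging the 4 DMSO lists, 185 of 43559 domains held 1 or more, 0.425%. Among the 50 widest peaks of a library, 38 and 30 in H3WT and 41 and 36 in K27M held one. Among the 200 widest it was 119, 94, 127 and 107. The domain of Gata4 was 49.0 and 56.2 kb in H3WT and 46.4 and 50.7 kb in K27M.

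**Figure D4:**
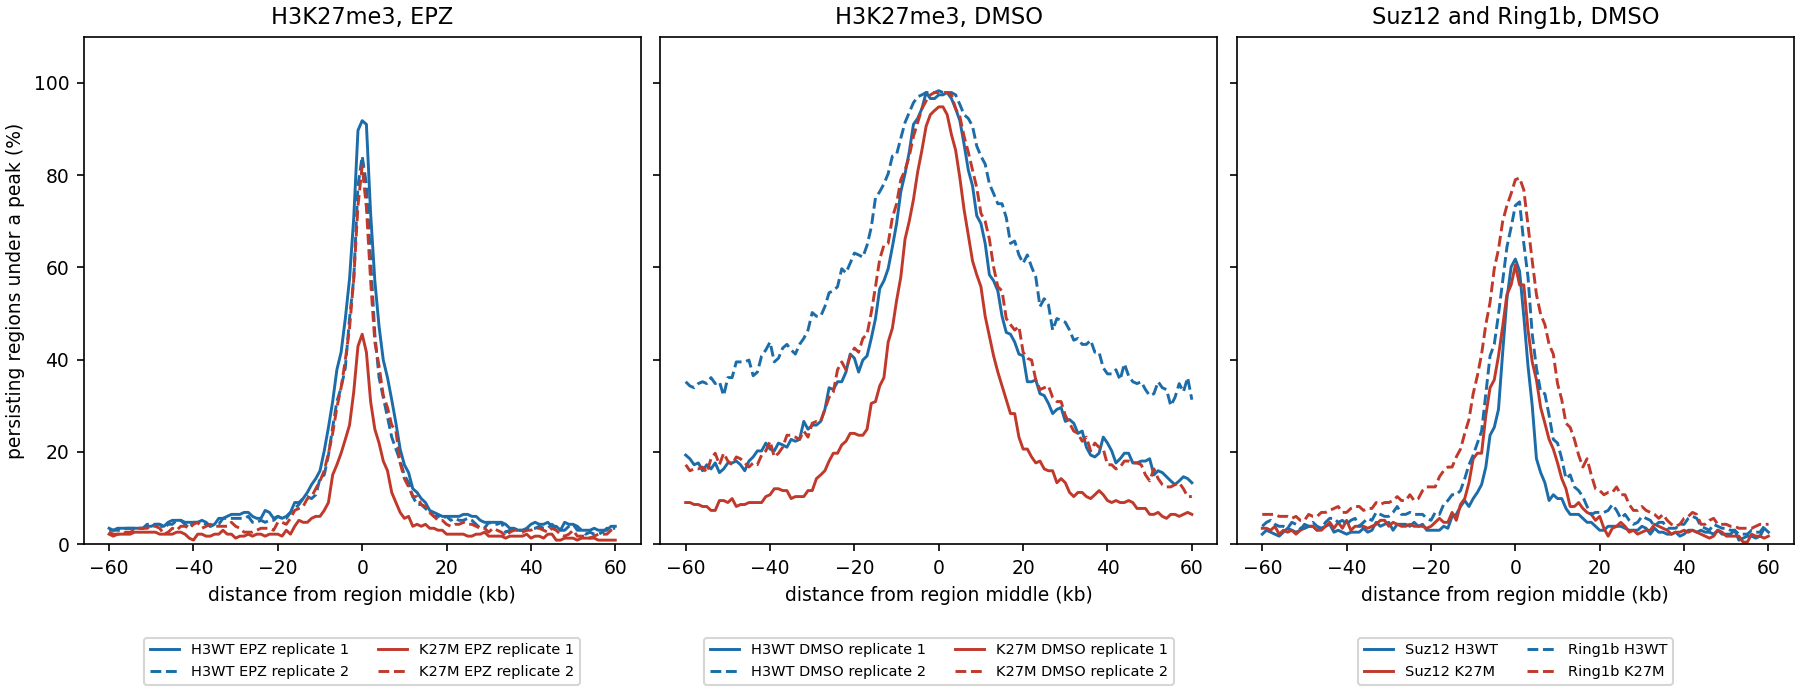
Percent of the 233 persisting regions that lie under a peak at each distance from the region middle (kb), for H3K27me3 in EPZ, H3K27me3 in DMSO, and Suz12 and Ring1b in DMSO, with 1 line per library. At 10 kb before the middle 69.5%, 84.5%, 52.8% and 73.8% of regions are under DMSO peaks (H3WT replicates 1 and 2, K27M replicates 1 and 2), and 6.01% to 15.9% under EPZ peaks.

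Suz12 and Ring1b, also independent of the choice of regions, lay in most persisting regions. A Suz12 peak of H3WT cells touched 179 of 233 regions, 76.8% (exact Clopper-Pearson 95% interval 70.9 to 82.1%), and one of K27M cells touched 168, 72.1% (65.9 to 77.8%). Ring1b peaks touched 192 regions in each genotype, 82.4% (76.9 to 87.1%). Over all 43559 merged DMSO domains the shares were 0.905% and 1.60% for Suz12 and 1.83% and 1.79% for Ring1b, H3WT first. With 1 library per genotype and factor there was no test, and the intervals cover the counting of regions only. All 4 factor libraries had a peak in 150 regions and none had one in 28.

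Suz12 and Ring1b were called less often in other wide or widely shared DMSO domains. Of 101 DMSO domains without a persisting region that were at least as wide as the median of those with one, 22.8% and 47.5% had Suz12 and 61.4% and 64.4% had Ring1b. Of the 1213 domains that were called in all 4 DMSO libraries and held no persisting region, 17.4% and 40.1% had Suz12 and 30.6% and 37.8% had Ring1b. The 185 domains with a persisting region had 84.3% and 81.6%, and 85.9% and 86.5%. Median widths were 45.6 kb in the 101 domains, 13.2 kb in the 1213 and 37.4 kb in the 185. A wider domain has more room for a peak, and the part of width was not tested. The exact intervals of the domains with and without a region did not overlap for any of the 4 libraries. They count domains within 1 library, which are not replicates, and so are no test of the difference.

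Regions in more lists carried the factors more often and were also wider, with medians of 3.42, 5.85 and 12.8 kb in 2, 3 and 4 lists. Regions with a Suz12 peak of K27M had a median width of 8.96 kb and those without one 4.42 kb, and the part of width in this order was not tested. Of the 117 in all 4 EPZ lists, 106 and 105 had Suz12 (H3WT, K27M) and 107 in each genotype had Ring1b. Of the 61 in 3 lists, 40 and 42 had Suz12 and 48 in each had Ring1b. Of the 33 found in both H3WT lists and no K27M list, 26 had a Suz12 peak of H3WT and 12 one of K27M, while Ring1b touched 26 in each genotype. In those 33 regions 14 had Suz12 in H3WT alone, 42.4%, and 0 in K27M alone. Over all 233 persisting regions these shares were 9.87% and 5.15%. The 33 regions passed the rule through the H3WT lists only. The Suz12 lists held 631 autosomal peaks in H3WT and 1243 in K27M, and their part in these counts was not tested. Of the 145 regions in 1 list, which fell outside the rule, 26 and 51 had Suz12 and 54 and 60 had Ring1b.

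**Figure D5:**
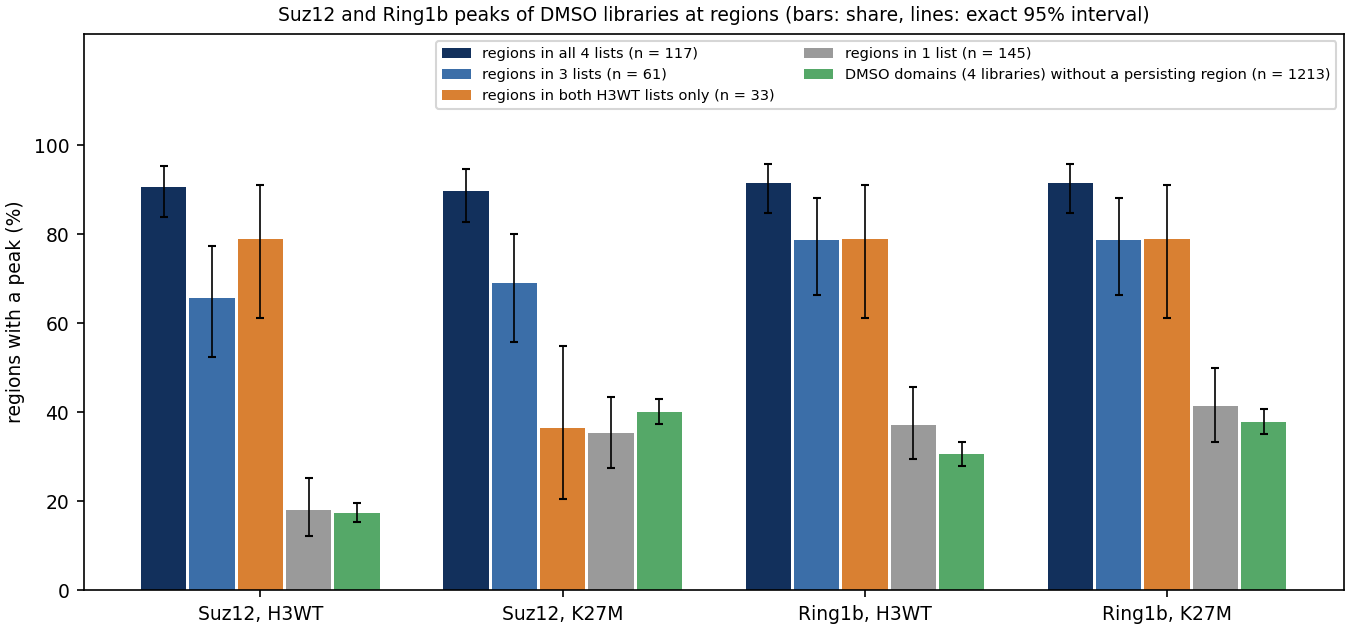
Percent of regions with a Suz12 or Ring1b peak in the DMSO libraries of each genotype, by the EPZ lists that hold the region, beside DMSO domains of all 4 libraries without a persisting region. Lines are exact 95% intervals over regions. In regions of both H3WT lists only, Suz12 is in 26 of 33 for H3WT and 12 of 33 for K27M.

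EPZ cover was set beside the genotype in which Suz12 was called. In 23 regions with Suz12 in H3WT alone, EPZ peaks covered 91.9% and 66.7% of the length in H3WT and 9.05% and 18.7% in K27M. In 12 regions with Suz12 in K27M alone the values were 64.2% and 19.5% in H3WT and 31.3% and 93.5% in K27M. The genotypes did not overlap in the first set and overlapped in the second, where K27M replicate 1 and H3WT replicate 2 were low. In 156 regions with Suz12 in both genotypes the values were 98.6% and 87.4% in H3WT and 51.4% and 82.2% in K27M. Over all 233 persisting regions they were 94.7% and 81.6%, and 45.8% and 78.7%. The genotypes did not overlap there either, so this is not particular to the first set. EPZ cover was used to choose the regions, so these values are a description.

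Of the 5 widest regions found in both H3WT lists and no K27M list, 4 belonged to the first set. At Tfap2b, chr1:19206382-19214661, EPZ peaks covered 8.24 and 8.18 kb in H3WT and none in K27M, and Suz12 covered 4.49 kb in H3WT and 0 in K27M. At Msx2, a homeobox gene of skull and limb, chr13:53461205-53469257, EPZ peaks covered 8.05 and 4.38 kb in H3WT and 0 in K27M, with 5.65 and 0 kb of Suz12. At Tfap2a, chr13:40736879-40745282, they covered 8.40 and 4.99 kb in H3WT and 0 in K27M, with 5.83 and 0 kb of Suz12. Near Nr2f2, an orphan nuclear receptor gene, chr7:70279340-70288435, they covered 9.10 and 7.76 kb and 0 in K27M, with 4.44 and 0 kb of Suz12. Ring1b peaks of both genotypes and DMSO peaks of all 4 libraries were present in these 4 regions. Osr1, a zinc finger factor of kidney and mesoderm and the widest of these 5, chr12:9572666-9582759, had 10.1 and 8.13 kb covered in H3WT and Suz12 in both genotypes, over 6.62 kb in H3WT and 2.07 kb in K27M.

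In the second set, the homeobox genes Otx2 and Dlx1 had the higher cover in both K27M lists. At Otx2, chr14:48661334-48674003, EPZ peaks covered 2.59 and 0 kb in H3WT and 9.14 and 12.7 kb in K27M, and Suz12 covered 0 kb in H3WT and 12.5 kb in K27M. At Dlx1, chr2:71530247-71541221, they covered 7.85 and 0 kb in H3WT and 9.44 and 11.0 kb in K27M, with 0 and 11.0 kb of Suz12. These were 2 of the 4 regions where both K27M lists covered more than both H3WT lists, and were singled out after their values were seen. The other two lay near Ets1 and near Ahr and had no Suz12 peak. The region near Ahr, chr12:35491879-35494355, was the one found in both K27M lists and no H3WT list, with 1.42 and 2.38 kb covered.

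Within the DMSO domains the factor peak middles fell in the persisting stretches more often than the share of length, most clearly for Suz12 of H3WT. Of the Suz12 peak middles of H3WT that lay in domains touching a persisting region, 92.2% and 91.2% were in the region itself, while the regions made up 43.4% and 29.4% of those domains (DMSO replicates 1 and 2). In K27M 73.3% and 70.3% of the Suz12 middles were in the regions, with 51.6% and 37.1% of the length. For Ring1b it was 69.3% and 64.5% in H3WT and 66.1% and 59.4% in K27M. Of all autosomal Suz12 peaks 55.3% in H3WT and 31.1% in K27M touched a persisting region, and of all Ring1b peaks 16.0% and 11.5%. Ring1b peaks at persisting regions had median widths of 5.49 and 12.1 kb, against 1.71 and 1.76 kb over all Ring1b peaks. Ring1b covered 78.4% and 88.2% of the persisting length and Suz12 58.5% and 59.6%.

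Cover by the factors differed between Hox regions. In the Hoxa9 to Hoxa13 region, 55.5 kb wide, Suz12 covered 44.6 kb (H3WT) and 51.0 kb (K27M), while Ring1b covered 54.4 and 55.5 kb. In the Hoxb5 to Hoxb2 region, 50.1 kb wide, Suz12 covered 14.6 and 5.78 kb and Ring1b 27.9 and 46.1 kb. By width, the 20 regions of 20 kb or more all had peaks in each of the 4 factor libraries. Of the 63 regions between 10 and 20 kb, 58 and 60 had Suz12 (H3WT, K27M) and 62 in each genotype had Ring1b. Of the 69 between 2 and 5 kb it was 46 and 37 for Suz12 and 45 and 43 for Ring1b.

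The 28 regions without Suz12 and Ring1b were 1.64 to 10.4 kb wide. The widest, chr7:96564013-96574378, lay inside Tenm4, a teneurin gene, where EPZ peaks covered 8.52 and 9.31 kb (H3WT) and 6.62 and 10.4 kb (K27M). It lay in DMSO domains of 38.3 and 110.8 kb in H3WT and 24.2 and 38.9 kb in K27M. The next were near Olfr1274 (9.95 kb), inside Thsd4 (9.71 kb), inside Prdm16 (7.34 kb) and near Ets1 (6.61 kb). The region near Olfr1274 rested on 9.95 kb in K27M replicate 2, with 1.03 and 1.08 kb in H3WT and none in K27M replicate 1.

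For 4 regions the DMSO lists hold no peak in any library, so the lists show a mark under EPZ and not that it persisted. They were 2 stretches of Sfi1, a centrosomal gene, chr11:3191784-3197789 and chr11:3188751-3191583, and regions at Slc30a4, chr2:122680562-122682696, and Aida, chr1:183298526-183300223. All 4 were among the 9 regions found in both replicate 2 EPZ lists only, and had no Suz12 or Ring1b peak. The widest of the 9, chr17:39842386-39849471, holds the ribosomal RNA pseudogene Rn18s-rs5, with 2.11 kb covered in H3WT replicate 2 and 7.09 kb in K27M replicate 2. Ring1b peaks of both genotypes lay over the whole 7.09 kb. It also had a Suz12 peak of H3WT, so it is among the 23 regions with Suz12 in H3WT alone. The input or control used for peak calling is not given in the sources used here, and its part in these regions was not tested.

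By the median, starts of genes in persisting regions held somewhat more CG dinucleotides than all starts, and fewer than other starts marked in DMSO. The RefSeq table (GRCm38.p6; windows of 300 bases; CG counted, which reads the same on both strands) placed 124 starts of 107 genes in persisting regions, with a median of 17.0 CG and quartiles of 12.0 and 26.0. The 455 starts under H3K27me3 in all 4 DMSO libraries and outside persisting regions had a median of 22.0, and all 20085 starts in the table one of 14.0. At least 10 CG were found in 83.9%, 82.0% and 57.9% of these windows. Of the 124 starts, 104 lay under a Suz12 peak in H3WT and 91 in K27M, and 113 and 115 under Ring1b.

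Just inside the rule, the widest regions in exactly 2 lists were Osr1, near Nr2f2 and Tfap2a, at 10.1, 9.10 and 8.40 kb. Just outside it, the widest regions in 1 list lay near Tle4 (7.89 kb) and at 2610008E11Rik (7.44 kb), both in K27M replicate 2, and near Nkx2-1 (6.41 kb) in H3WT replicate 1. The 145 regions in 1 list had a median width of 1.61 kb, and 89 of them came from K27M replicate 2, 45 from H3WT replicate 1, 10 from H3WT replicate 2 and 1 from K27M replicate 1.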

How the data were processed

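The peak lists of 12 libraries were used, 1 per library, and the 2 IgG libraries were not analysed here. Bowtie 1.1.2 and build mm10 are named in the submitters' processing notes, and the peak caller, its threshold and control are not given in the sources used here. The deposited lists hold peak starts and ends only. Their score column is 0 throughout, so width, overlap and covered length were computed and depth is unknown.

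Touching peaks of a list were joined (21 peaks), overlaps needed 1 bp, and a domain is a merged DMSO peak. Genes came from RefSeq (GRCm38.p6). Of 552 gene list entries 528 distinct autosomal genes matched. The members and lists were chosen with earlier results of these data known. Regions were named by width within each class, and genes by region width, up to 6 a list; some of these genes are not reported here. The interval code was tested on simulated peaks. Python 3.11.15, pandas 2.3.3 and SciPy 1.17.1 were used. Alternatives were the number of lists, gaps, peak width, overlap, gene window, replicate block and left-out lists or replicates.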

Additional observations from a re-analysis of the deposited data

How the results depend on the processing

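Of 114 alternative values, 23 moved and 3 reversed. The other 88 were counts within 1.5 times the reported one, shares within its interval, or genotype differences of the same sign, whatever their size. The reversed ones were all the small DMSO cover difference between genotypes, -0.56 points, which became 0.08 for regions in all 4 lists, 0.07 with H3K27me3 peaks of at least 3 kb and 0.11 without replicate 2. It kept its sign but shrank to -0.05 without replicate 1, -0.11 in at least 3 lists and -0.14 without the EPZ list of H3WT replicate 2, and was -0.99 with peaks up to 5 kb apart merged. Requiring all 4 lists left 117 regions, with Suz12 in 90.6% and 89.7% (H3WT, K27M) and Ring1b in 91.5% and 91.5%. Peaks of at least 3 kb gave 86.6%, 81.7%, 92.1% and 92.7%. Suz12 of K27M was in 82.6% of regions in at least 3 lists. Where a factor had to cover at least 50% of a region, the shares were 60.5% and 57.9% for Suz12 (H3WT, K27M) and 73.0% and 79.8% for Ring1b. Gene starts in the RefSeq table, chosen after seeing the data, gave 107 genes. Without replicate 1 or 2 the number was 195 and 131, with Suz12 in 80.5% to 85.5% and 81.5% to 87.0% and Ring1b in 86.7% to 87.8% and 87.2% to 87.8%. Leaving out 1 EPZ list, also added later, gave 191 to 232 regions, and Suz12 of K27M was in 80.1% and 81.2% without an H3WT list. With the replicate number as a block the genotype differences in DMSO stayed at -0.56 points and -0.30 (exact permutation test, p = 0.500, the smallest this pairing allows), and the difference between replicates 1 and 2 correlated between genotypes over 223 regions at 0.516. Depth is unknown, so a region missing from a list was not called there and may still carry the mark.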
